A study of Homo sapiens with 45 samples.

Results

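Degradation of EED, a core subunit of Polycomb repressive complex 2 (PRC2), was compared with solvent treatment by its effect on the chromatin contacts of poised enhancers in HNES1, a human embryonic stem cell line. The unit described is the locus, a fixed 500 kb window of bait position that held at least 20 bait pairs on the same chromosome. There were 2084 such loci among 4066 windows with any such pair, and they held 136137 of 152688 pairs within a chromosome (89.2%) and 19600 captured baits. The whole table listed 434524 pairs, the others joining different chromosomes. Naive HNES1 cells, grown on mouse feeders in PXGL medium and moved off the feeders beforehand, were taken through the naive-to-primed transition and fixed on day 5. The DMSO group received an equal volume of solvent, and the UNC6852 group received 2.5 µM of the compound, a PROTAC that brings EED to the proteasome, from the day before the transition began and replaced daily. A further group received UNC1999 at 1 µM, an inhibitor of the catalytic subunits EZH2 and EZH1, on the same schedule. Each group had 15 libraries from 3 biological replicates in 2 batches (12 and 3 libraries), which were pooled into 1 profile per group. All values come from 1 cell line and from pooled profiles, so no spread between replicates exists, no test was made, and every difference below is a difference between these profiles. The doses of the compounds differ, so UNC1999 values stand beside those of UNC6852 and no comparison of strength is made. Contact scores hold no measure of EED protein, of histone marks or of cell identity, and these were not analysed here.

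PRC2 places the repressive mark H3K27me3 on chromatin. Its EZH2 or EZH1 subunit carries the catalytic activity, SUZ12 holds the complex together, and EED binds the finished mark and stimulates further methylation. CBX proteins of canonical Polycomb repressive complex 1 (PRC1) bind the mark, and regions that carry it can meet in the nucleus over long distances. In pluripotent cells PRC2 sits at CpG-rich regions of developmental regulators such as HOX, PAX and NKX genes, and poised enhancers are distal elements near such genes that carry H3K27me3 before their gene is switched on. Poised-enhancer capture Hi-C digests crosslinked chromatin with DpnII, joins fragments that lie together, and enriches with RNA probes for ligation products that contain a chosen bait.

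Promoter windows that lie on baits of the loci described below show the kind of sequence that was captured. They run from 250 bases before to 50 after an annotated start, come from RefSeq for GRCh38.p14, and were chosen because a bait overlapping the window belonged to one of the loci with the largest summed differences. Each is written 5′ to 3′ on its gene's strand, and capitals mark CG dinucleotides, the CpG sites. Over 22198 promoter windows of protein-coding genes, 98.0% held at least 1 CG, with a median of 21 and quartiles of 7 and 31, and 39.95% held GATC, the DpnII site, which reads the same on both strands.
RNF228 (chr2:222320106-222320405, minus strand): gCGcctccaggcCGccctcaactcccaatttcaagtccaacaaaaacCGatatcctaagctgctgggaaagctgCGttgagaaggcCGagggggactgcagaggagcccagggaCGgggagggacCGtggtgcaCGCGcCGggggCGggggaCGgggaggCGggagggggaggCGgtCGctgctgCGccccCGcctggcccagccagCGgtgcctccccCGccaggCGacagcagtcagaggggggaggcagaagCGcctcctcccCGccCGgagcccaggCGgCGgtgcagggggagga
OTP (chr5:77638664-77638963, minus strand): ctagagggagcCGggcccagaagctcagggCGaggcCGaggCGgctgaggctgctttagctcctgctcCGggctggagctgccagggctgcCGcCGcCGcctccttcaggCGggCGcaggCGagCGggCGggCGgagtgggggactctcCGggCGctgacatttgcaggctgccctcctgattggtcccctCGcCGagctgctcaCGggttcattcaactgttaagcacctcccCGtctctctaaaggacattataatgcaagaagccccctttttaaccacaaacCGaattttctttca
VAX1 (chr10:117138221-117138520, minus strand): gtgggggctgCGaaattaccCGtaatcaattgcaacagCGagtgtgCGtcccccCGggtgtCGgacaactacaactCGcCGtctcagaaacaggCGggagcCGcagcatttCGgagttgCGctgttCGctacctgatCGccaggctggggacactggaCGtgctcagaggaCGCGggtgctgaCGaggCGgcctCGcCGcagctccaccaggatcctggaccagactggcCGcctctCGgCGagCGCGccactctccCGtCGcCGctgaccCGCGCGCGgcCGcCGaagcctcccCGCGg
SMIM32 (chr5:136193113-136193412, minus strand): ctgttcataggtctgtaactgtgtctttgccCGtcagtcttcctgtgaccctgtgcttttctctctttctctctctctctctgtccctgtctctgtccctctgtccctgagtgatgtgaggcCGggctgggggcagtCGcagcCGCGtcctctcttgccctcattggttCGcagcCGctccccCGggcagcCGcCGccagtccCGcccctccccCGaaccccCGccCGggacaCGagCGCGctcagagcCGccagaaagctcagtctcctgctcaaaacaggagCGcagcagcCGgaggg
BMI1 (chr10:22321706-22322005, plus strand): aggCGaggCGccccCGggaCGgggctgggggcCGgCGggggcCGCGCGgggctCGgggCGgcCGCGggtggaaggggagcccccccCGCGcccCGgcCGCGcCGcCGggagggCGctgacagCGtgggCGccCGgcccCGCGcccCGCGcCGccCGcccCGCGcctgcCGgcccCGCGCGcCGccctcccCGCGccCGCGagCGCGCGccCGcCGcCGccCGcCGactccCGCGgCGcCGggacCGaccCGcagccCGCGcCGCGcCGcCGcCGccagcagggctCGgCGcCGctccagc
HOXC4 and HOXC5 (chr12:54016638-54016937, plus strand): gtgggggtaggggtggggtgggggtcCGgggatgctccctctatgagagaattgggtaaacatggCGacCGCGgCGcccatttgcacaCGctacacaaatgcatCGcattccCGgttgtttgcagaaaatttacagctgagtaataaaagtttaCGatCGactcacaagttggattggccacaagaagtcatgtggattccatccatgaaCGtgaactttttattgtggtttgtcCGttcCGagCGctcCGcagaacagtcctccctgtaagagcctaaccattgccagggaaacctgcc
The windows held 25 CG for RNF228, 21 for OTP, 37 for VAX1, 20 for SMIM32, 65 for BMI1 and 15 for the start shared by HOXC4 and HOXC5. BMI1, which encodes a RING-finger subunit of PRC1, had the richest of these windows, and GATC was present in the VAX1 window (2 copies) and the HOXC4 window (1 copy).

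Each value is a CHiCAGO score, which grows with the excess of ligation products of a bait and its other end over those a distance-dependent background predicts. A score of at least 5 counted as a call. Every listed pair was called in some profile, so a pair called in a single profile is in the table through that profile alone. The bait fragments had a median width of 622 bp and the other ends one of 5257 bp. Within chromosomes, 64730 pairs were called in the DMSO profile, 70421 in the UNC6852 profile and 64544 in the UNC1999 profile. UNC6852 and DMSO shared 20297 of these calls. In 24.8% of the pairs (37834) neither the DMSO nor the UNC6852 score reached 5, and these pairs are in the table through UNC1999. Scores were compared as asinh values, a scale that is close to logarithmic for high scores and is defined at 0. The difference UNC6852 minus DMSO had a median of 0.021, a mean of 0.075 and quartiles of -0.62 and 0.78. The median was subtracted from every pair, and what remains is called the centred difference. A difference of 1 or more was found in 30882 pairs (20.2%) and of -1 or less in 26182 pairs (17.1%).

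The balance of calls shifted with distance. Below 20 kb there were 662 calls in DMSO and 627 with UNC6852, a ratio of 0.947. The ratio was 1.04 at 20 to 100 kb, 1.08 at 100 to 500 kb, 1.15 at 0.5 to 2 Mb and 1.14 beyond 2 Mb. Large differences of single pairs in both directions grew more common over the same range, from 2.12% higher and 1.78% lower by 1 or more below 20 kb to 35.3% and 30.6% beyond 2 Mb. The mean difference was -0.0090 below 20 kb and 0.13 beyond 2 Mb, while the median difference beyond 2 Mb was 0. The numbers of reads behind the profiles are unknown.

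Among the 2084 loci the mean centred difference had a median of 0.054 and quartiles of -0.076 and 0.19, and 1274 loci lay above 0. A locus was counted as higher at a mean of 0.3 or more, which held for 243 loci (11.7%), and as lower at -0.3 or less, which held for 122 (5.85%). That excess of higher loci came with the choice of centre. With the mean of all pairs subtracted in place of the median there were 167 higher and 172 lower loci, and with quantile-normalized scores 178 higher and 168 lower. Higher loci had a median level of 1.45 in the mean asinh score of the DMSO profile, 1.89 with UNC6852 and 1.62 with UNC1999. Lower loci had medians of 1.88 in DMSO, 1.49 with UNC6852 and 1.59 with UNC1999, and all other loci 1.78, 1.83 and 1.77. Higher loci therefore started below the level of other loci in DMSO and lower loci above it, an arrangement that choosing loci by their difference from DMSO itself favours.

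**Figure D1:**
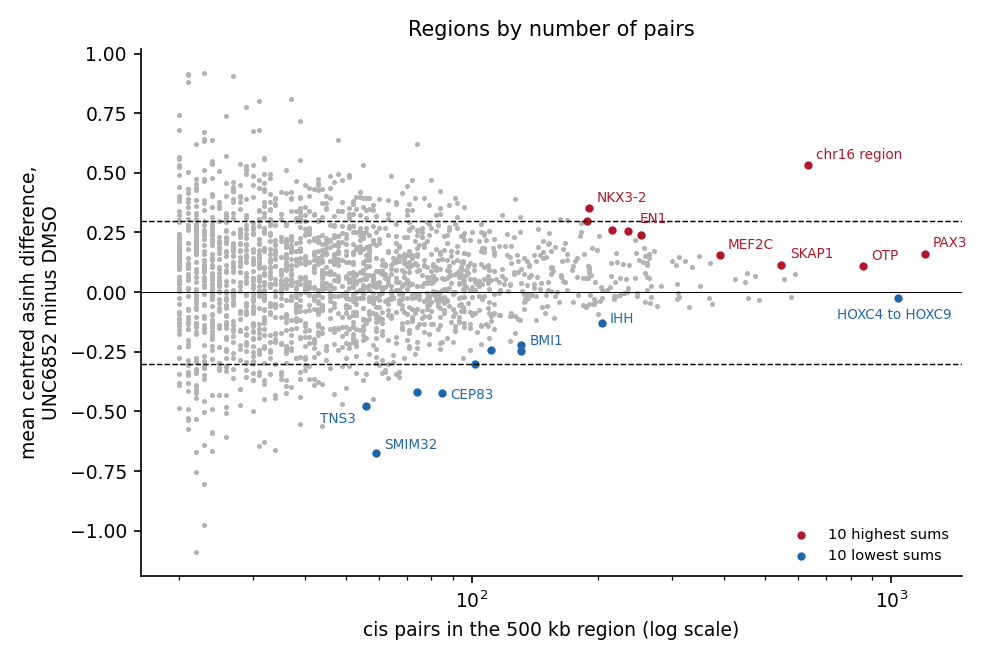
Mean centred asinh difference (UNC6852 minus DMSO) of each of the 2084 loci against its number of pairs on a log scale, with dashed lines at 0.3 and -0.3. Means spread widely where a locus has 20 to 29 pairs and narrow with more pairs, and 1 locus on chromosome 16 with 632 pairs stands apart at 0.53.

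Loci with few pairs filled the extremes. The SD of the mean centred difference over loci was 0.29 at 20 to 29 pairs, 0.23 at 30 to 49, 0.18 at 50 to 99 and 0.12 at 100 or more. Of the 295 loci with 100 pairs or more, 7 were higher (2.37%) and 1 was lower (0.339%), against 94 and 61 of the 527 loci with 20 to 29 pairs. Among those 295 loci 199 lay above 0, and their means ran from -0.30 to 0.53. Sums over a locus, which weight many small differences, therefore pick out other loci than means do, and both are given.

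Interleaved baits of the same locus gave a check within the profiles. The baits of each of 2061 loci with more than 1 bait were dealt in turn into 2 sets, and the 2 sets had sums of the same sign in 1113 loci (54.0%). Across loci the sums of the sets had a Pearson r of 0.26 and a Spearman rho of 0.080, and without the 3 loci of highest sum r was 0.079. Both sets rest on the same pooled libraries and can share other ends. Where loci held 100 pairs or more, 174 of 295 (59.0%) had sets of the same sign, and with fewer than 30 pairs 269 of 510 (52.7%). The share was 87.6% for higher loci and 86.7% for lower ones, a share that choosing them by their overall mean raises. Neighbouring loci did not move together to any extent, with r of 0.058 over 1010 adjacent loci, of which 13 were both higher and 7 both lower. The loci described next are those with the largest sums in either direction. Their counts of baits above or below 0 and the sums of their 2 sets are parts of the sum that chose them. They describe how a sum is spread over baits and are no separate evidence for it.

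**Figure D2:**
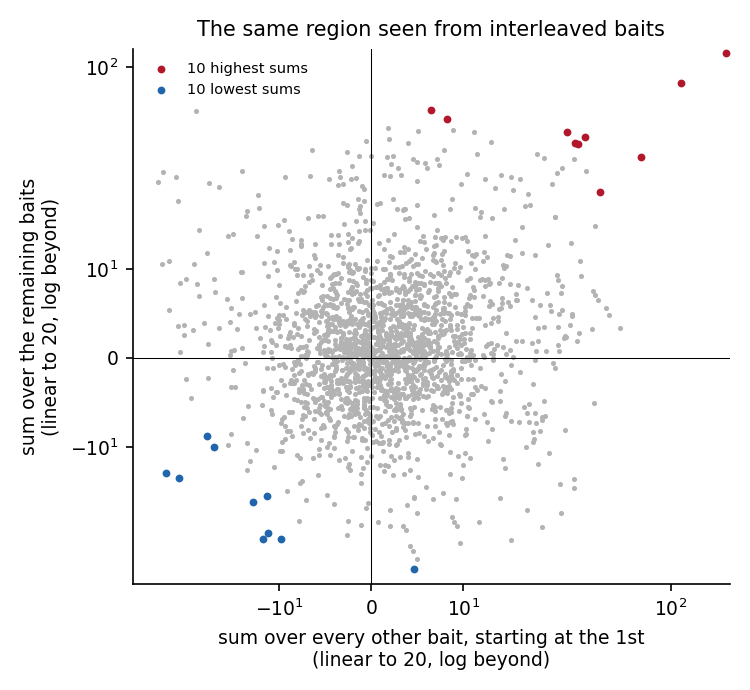
Sum of centred asinh differences (UNC6852 minus DMSO) over alternate baits of a locus, one set per axis, for 2061 loci, with axes linear to 20 and logarithmic beyond. The 10 loci of highest sum lie in the quadrant where both sets are above 0, and 9 of the 10 lowest lie where both are below 0, the HOXC locus being the exception. Choosing loci by the total of both sets favours these quadrants.

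The PAX3 locus (chr2:222000001-222500000) held the most pairs of any locus, 1200 from 50 baits, and the second highest sum. PAX3 encodes a paired-box factor of neural crest and muscle precursors, and the window also holds RNF228 and SGPP2. The mean asinh score was 2.11 in DMSO, 2.29 with UNC6852 and 2.29 with UNC1999, with 592, 750 and 730 calls. The sum of centred differences was 193.6, or 0.16 per pair, and 35 of the 50 baits had sums above 0. Both sets of baits were above 0, at 114.2 and 79.4. Contacts inside the window itself made up most of it, with 852 pairs that numbered 412 calls in DMSO, 545 with UNC6852 and 526 with UNC1999. The bait on the RNF228 promoter printed above had 7 pairs, none called in DMSO, all 7 called with UNC6852 and none with UNC1999. Those 7 pairs are in the table through UNC6852 alone. A fragment at chr2:222053109-222053640 was met by 21 baits of the locus, with 8 calls in DMSO, 15 with UNC6852 and 16 with UNC1999, and a bait beside it had 19, 38 and 31 calls over 47 pairs. UNC6852 and UNC1999 thus both lay above DMSO here, by comparisons that share the DMSO profile.

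At the OTP locus (chr5:77500001-78000000) 854 pairs from 45 baits had a mean asinh score of 2.08 in DMSO, 2.21 with UNC6852 and 2.32 with UNC1999. OTP encodes a homeodomain factor of hypothalamic neurons. Calls numbered 397, 457 and 546, and the sum of centred differences was 93.6 for UNC6852 and 210.3 for UNC1999. Per pair the UNC6852 value was 0.11, between the quartiles of all loci (-0.076 and 0.19). After quantile normalization the UNC6852 sum was 52.3. The bait on the OTP promoter printed above stayed near the middle with a mean centred difference of 0.035 over 30 pairs. Higher sums came from baits to either side, such as one at chr5:77643638-77645111 with 13 calls in DMSO, 25 with UNC6852 and 21 with UNC1999. A distal fragment at chr5:77957311-77958784, 219 kb from its baits at the median, was met by 12 baits and was called from 1 of them in DMSO, 9 with UNC6852 and 6 with UNC1999. The distal fragment was named because its differences were large.

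NKX3-2, which encodes a homeodomain factor of cartilage and the spine, marks a locus that passed 0.3 by its mean as well, as did no other of the 10 loci of highest sum except that on chromosome 16. The locus (chr4:13500001-14000000) held 190 pairs from 21 baits, with a mean asinh score of 1.69 in DMSO, 2.07 with UNC6852 and 1.80 with UNC1999. Its baits lie close together near the gene, 17 of 21 had sums above 0, and the sum was 67.1, or 0.35 per pair, with 30.2 and 36.9 in the interleaved sets. The 184 pairs toward lower coordinates summed to 69.6. Toward chr4:12500001-13000000 there were 135 pairs with 64 calls in DMSO, 75 with UNC6852 and 70 with UNC1999, and toward chr4:13000001-13500000 47 pairs with 16, 26 and 12 calls. The 9 pairs seen from baits in the former window back to the NKX3-2 window had a mean of 0.57 and 2, 6 and 5 calls.

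EN1 and VAX1, both homeodomain regulators of the developing brain, were also among the 10 loci of highest sum. At the EN1 locus (chr2:118500001-119000000) 235 pairs had a mean asinh score of 1.62 in DMSO, 1.90 with UNC6852 and 1.72 with UNC1999. Calls numbered 82, 113 and 95, and 15 of 19 baits had sums above 0, for a total of 60.0. The window at lower coordinates took up 193 of the pairs, with 73 calls in DMSO, 95 with UNC6852 and 77 with UNC1999. At the VAX1 locus (chr10:117000001-117500000) 253 pairs had a mean of 1.61 in DMSO, 1.87 with UNC6852 and 1.64 with UNC1999, with 100, 127 and 107 calls and a sum of 60.9. Here 178 pairs led to the window that holds HSPA12A, with 76, 98 and 77 calls. A fragment inside HSPA12A (chr10:116793673-116798737) scored 0 in DMSO, 12.5 with UNC6852 and 0 with UNC1999 from a bait 379 kb away, and 0, 12.4 and 0 from another bait 369.8 kb away. Both contacts are in the table through UNC6852 alone. Another HSPA12A fragment (chr10:116804566-116809938) was met by 15 baits and called from 6 of them in DMSO, 12 with UNC6852 and 7 with UNC1999. The reverse view, 46 pairs from baits in the HSPA12A window back to the VAX1 window, had a mean of -0.037 with 24, 26 and 15 calls, so the higher level was seen from the VAX1 side alone. The bait on the VAX1 promoter had a mean of 0.14 over 6 pairs.

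NR2F2 encodes an orphan nuclear receptor of mesoderm, vessels and brain. Its locus (chr15:96000001-96500000) held 216 pairs from 56 baits. Its mean asinh score of 1.27 in DMSO was the lowest of the 10 loci of highest sum, beside 1.55 with UNC6852 and 1.55 with UNC1999. Calls numbered 62, 91 and 88, and 33 baits lay above 0 and 23 below. The fragment at chr15:97027409-97033060 was met by 10 baits, of which 2 called it in DMSO, 6 with UNC6852 and 2 with UNC1999. The fragment at chr15:97234585-97239935, met by 22 baits, went the other way and was called from 15 in DMSO, 11 with UNC6852 and 10 with UNC1999. The sum of 56.1 turned to -2.91 when only pairs with a mean score of 5 or more were kept.

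The locus named here for MEF2C, a MADS-box factor of muscle, heart and neurons, lies at chr5:88500001-89000000. Its 390 pairs from 32 baits had means of 1.70 in DMSO, 1.88 with UNC6852 and 1.71 with UNC1999, with 142, 200 and 163 calls. Uneven baits made up the sum of 60.9, since the interleaved sets had 6.55 and 54.4. A bait at chr5:88674826-88675268 had 6 pairs, none called in DMSO, 6 with UNC6852 and 2 with UNC1999. Those of the bait's pairs not called with UNC1999 are in the table through UNC6852 alone. The contact of this bait with chr5:88141813-88142872, 533 kb away, scored 0 in DMSO, 20.5 with UNC6852 and 13.7 with UNC1999. Toward chr5:87500001-88000000 there were 134 pairs with 48, 82 and 58 calls, and the 74 pairs in the reverse direction had 43, 43 and 36.

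SKAP1, which encodes an adaptor protein of T cells, adjoins the HOXB cluster, and contacts between the SKAP1 window (chr17:48000001-48500000) and the HOXB window (chr17:48500001-49000000) were higher from both sides. From the SKAP1 side, 117 pairs from 25 baits to the HOXB window had a mean centred difference of 0.33, with 49 calls in DMSO, 72 with UNC6852 and 50 with UNC1999. From the HOXB side, 377 pairs from 53 baits to the SKAP1 window had a mean of 0.11, with 150, 174 and 159 calls. The median of the means of all loci was 0.054, so the HOXB side lay little above it. The sum over all pairs of the HOXB window, 30.5, was 2.40 after quantile normalization. A fragment at HOXB6 (chr17:48597053-48602092) was met by 11 SKAP1-side baits and called from 4 in DMSO, 10 with UNC6852 and 6 with UNC1999. In the opposite view, a fragment inside SKAP1 (chr17:48215787-48221708) was met by 25 HOXB-side baits and called from 6, 13 and 13. Contacts inside the SKAP1 window differed less, with a mean of 0.056 over 404 pairs and 182, 229 and 165 calls. No pair entered both views, which share the pooled libraries.

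ZNF703, which encodes a zinc-finger corepressor, marks the locus of the tenth highest sum (chr8:37500001-38000000), with 188 pairs at means of 1.63 in DMSO, 1.95 with UNC6852 and 1.69 with UNC1999. Calls numbered 64, 100 and 60. The window at lower coordinates, in which no protein-coding gene is annotated, took up 100 of the pairs, with 30 calls in DMSO, 58 with UNC6852 and 36 with UNC1999. The bait on ZNF703 itself at chr8:37698945-37699722 had 18 pairs with 0, 10 and 9 calls. The interleaved sets differed, at 8.29 and 47.4.

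The highest sum of all, 336.7, stood apart in kind. It belongs to chr16:46000001-46500000, which holds no annotated protein-coding gene, the nearest being SHCBP1 at 78 kb. Its 632 pairs came from 16 baits, 607 of them spanned more than 2 Mb and 584 led toward lower coordinates, with a median distance of 11469.7 kb that reaches across the centromere. The mean asinh score was 2.01 in DMSO, 2.57 with UNC6852 and 2.11 with UNC1999, with 334, 442 and 359 calls. A single bait at chr16:46390065-46390538 held 300 pairs, with 183, 232 and 200 calls, and without it the sum was 173.9. Pairs within 2 Mb summed to 7.86.

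**Figure D3:**
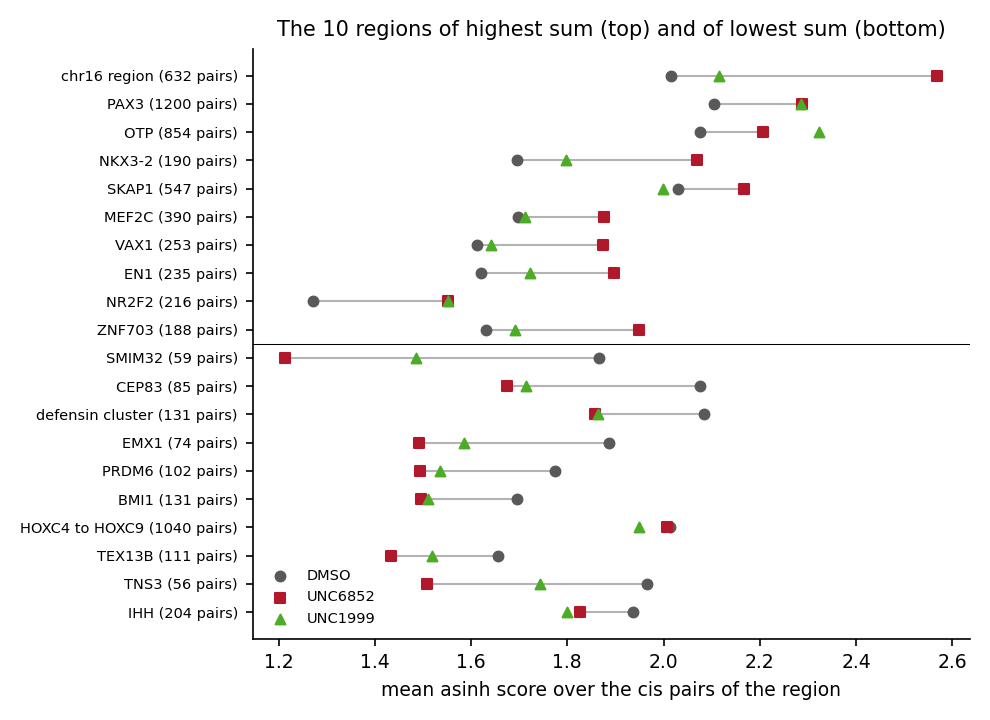
Mean asinh score over the pairs of each locus in the DMSO, UNC6852 and UNC1999 profiles, 1 pooled value each, for the 10 loci of highest summed difference (above the line) and the 10 of lowest (below it). The lines join DMSO to UNC6852, and the chromosome 16 locus spans 2.01 to 2.57 while the HOXC locus has values of 2.01 in both.

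The lowest sum belonged to chr5:136000001-136500000, which holds TGFBI, SMAD5, SMIM32 and TRPC7. SMAD5 is a signal transducer of bone morphogenetic proteins, and TGFBI encodes a secreted matrix protein. Over 59 pairs from 16 baits the mean asinh score was 1.87 in DMSO, 1.21 with UNC6852 and 1.49 with UNC1999, and calls numbered 30, 15 and 20. The sum was -39.7, or -0.67 per pair, 12 of 16 baits lay below 0, and the interleaved sets had -26.8 and -12.9. With pairs of a mean score of 5 or more alone the sum was 0.0070. The bait on the SMIM32 promoter printed above had 5 pairs with 4 calls in DMSO, 1 with UNC6852 and none with UNC1999, and that on the TGFBI promoter had a mean of -0.65 over 5 pairs. A bait at chr5:136030880-136031027 had 6 pairs with 5, 0 and 1 calls. Its contact with chr5:135559517-135564742, 469 kb away, scored 7.78 in DMSO, 0 with UNC6852 and 1.94 with UNC1999. The 59 pairs from the neighbouring window back toward this side, chr5:135500001-136000000, had a mean of 0.13 and 26, 37 and 26 calls, so that view did not share the lower level.

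EMX1, a homeodomain regulator of the cerebral cortex, had the lowest locus mean among the listed transcription factors, at -0.42. Its locus (chr2:72500001-73000000) held 74 pairs at means of 1.89 in DMSO, 1.49 with UNC6852 and 1.59 with UNC1999, with 37, 22 and 29 calls. Sums below 0 were found in 14 of its 18 baits and in both interleaved sets, at -11.2 and -19.6, which are parts of the low sum that chose the locus. A bait at chr2:72951610-72952734 and a fragment inside DYSF (chr2:71609444-71614503), 1340.2 kb apart, scored 9.94 in DMSO and 0 with both UNC6852 and UNC1999. That pair is in the table through DMSO alone.

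BMI1 lies in the locus at chr10:22000001-22500000, of 131 pairs from 28 baits. The mean asinh score there was 1.70 in DMSO, 1.495 with UNC6852 and 1.51 with UNC1999, and calls numbered 60, 39 and 50. The sum was -29.1, with -12.9 and -16.2 in the interleaved sets, yet 12 baits lay above 0 and 16 below. Pairs toward higher coordinates carried it, with a mean of -0.34 over 86 pairs and 41 calls in DMSO against 23 with UNC6852, beside a mean of 0.0026 over the 45 pairs toward lower coordinates. The bait on the BMI1 promoter printed above had a mean of -0.50 over 6 pairs. From the SPAG6 end, a contact with chr10:22008111-22013902 scored 9.37 in DMSO, 0 with UNC6852 and 1.67 with UNC1999, while the baits on the SPAG6 promoter window had a mean of 0.81 over 4 pairs.

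CEP83, which encodes a centriole appendage protein, and PLXNC1, a semaphorin receptor, share the locus at chr12:94000001-94500000. Over 85 pairs the mean was 2.08 in DMSO, 1.67 with UNC6852 and 1.72 with UNC1999, with 50, 30 and 31 calls and a sum of -36.0. A bait at chr12:94152462-94152836 had 11 pairs, all 11 called in DMSO, 2 with UNC6852 and 1 with UNC1999. Most of these pairs are in the table through DMSO alone. At the locus of PPIC, CEP120 and PRDM6 (chr5:123000001-123500000), the last a regulator of smooth muscle genes, the means were 1.77, 1.49 and 1.54 over 102 pairs, with 53, 34 and 38 calls. Contacts inside that window numbered 21, with 15 calls in DMSO, 5 with UNC6852 and 5 with UNC1999. The TNS3 locus (chr7:47000001-47500000), named for a focal adhesion protein, had means of 1.96 in DMSO, 1.51 with UNC6852 and 1.74 with UNC1999 over 56 pairs. A single bait there, at chr7:47480029-47480893, had 20, 6 and 13 calls over 29 pairs, and without it the locus sum of -26.8 was -10.1.

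The remaining 4 loci among the 10 of lowest sum were of mixed kind. The defensin cluster at chr8:7000001-7500000, of 131 pairs from 6 baits, had means of 2.08 in DMSO, 1.86 with UNC6852 and 1.86 with UNC1999, with 87, 58 and 58 calls. Its genes stand in near-identical copies, between which reads may not be told apart. At chrX:107500001-108000000, which holds PRPS1 and TSC22D3, 111 pairs had means of 1.66, 1.43 and 1.52. A fragment at CLDN2, at lower coordinates outside the locus (chrX:106922101-106927107) was met by 3 baits and called from all 3 in DMSO and from none with UNC6852 or UNC1999. Those 3 pairs are in the table through DMSO alone. The window of IHH (chr2:219000001-219500000), which encodes the Indian hedgehog ligand, had means of 1.94, 1.83 and 1.80 over 204 pairs and a sum of -26.5. The HOXC locus is described with the other HOX clusters.

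**Figure D4:**
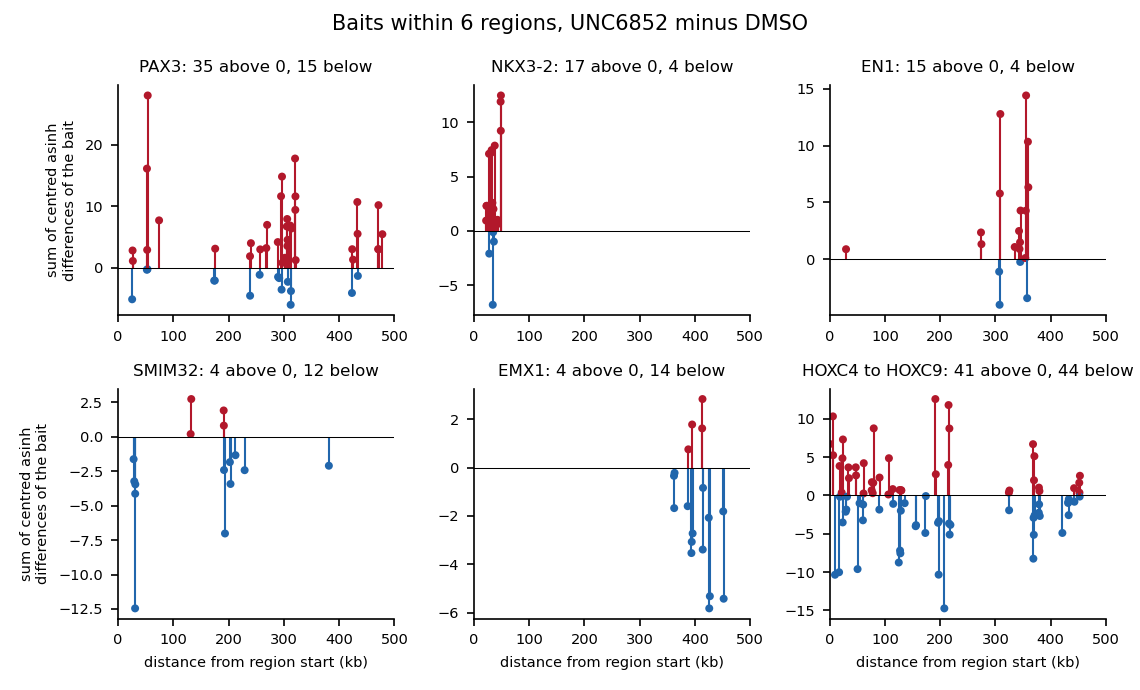
Sum of centred asinh differences (UNC6852 minus DMSO) of each bait against its distance from the start of the locus, for the PAX3, NKX3-2, EN1, SMIM32, EMX1 and HOXC4 to HOXC9 loci, 1 point per bait. Of the NKX3-2 baits 17 of 21 lie above 0 and of the EMX1 baits 14 of 18 below, while the HOXC baits divide into 41 above and 44 below. The loci were chosen by the total over these same baits.

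HOX clusters, the most familiar targets of Polycomb repression, did not reach a mean of 0.3 in either direction. Their windows hold 472 pairs or more each, and few loci of that coverage did. Of the 295 loci with 100 pairs or more, 7 were higher (2.37%) and 1 was lower (0.339%). The HOXA window (chr7:27000001-27500000) had mean asinh scores of 1.81 in DMSO, 1.90 with UNC6852 and 1.76 with UNC1999 over 472 pairs, with 193, 244 and 200 calls. The HOXB window had 1.85, 1.92 and 1.89 over 555 pairs, with 240, 265 and 253 calls. The HOXD window (chr2:176000001-176500000) had 1.89, 1.98 and 1.85 over 588 pairs, with 279, 308 and 276 calls, and almost all of its sum of 43.6 came from one interleaved set (41.7 against 1.89). The HOXC cluster spans 2 windows. That of HOXC10 to HOXC13 (chr12:53500001-54000000) had 1.99, 1.99 and 1.89 over 578 pairs, and that of HOXC4 to HOXC9 (chr12:54000001-54500000) had 2.01, 2.01 and 1.95 over 1040 pairs. The latter stood among the 10 lowest sums, at -27.4, through its many pairs at -0.026 each, and its 527 calls in DMSO were equal in number to those with UNC6852. Without the 1% of baits with the most pairs its sum was 4.12.

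Single contacts at HOX clusters differed more widely. A bait overlapping HOXD9 scored 0.45 in DMSO, 18.8 with UNC6852 and 3.80 with UNC1999 with chr2:177149732-177155024, 1030 kb away. A fragment at chr2:176645442-176646700 was met by 26 HOXD baits and called from 15 in DMSO, 22 with UNC6852 and 12 with UNC1999. Toward lower scores, a fragment at chr12:53703194-53708384 was met by 11 baits of the HOXC4 to HOXC9 window and called from 8 in DMSO, 2 with UNC6852 and 4 with UNC1999. The bait on the HOXC4 and HOXC5 start printed above had a mean of -0.42 over 24 pairs. These contacts were picked for the size of their differences.

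Of the loci ranked by mean, the 5 highest held 21 to 27 pairs each. NKX6-2, a homeodomain factor of spinal cord and oligodendrocytes, lies with INPP5A in the one at chr10:132500001-133000000, with means of 1.25 in DMSO, 2.16 with UNC6852 and 1.57 with UNC1999 and 4, 17 and 7 calls. The locus of KDM4B and PTPRS (chr19:5000001-5500000) had 1.24, 2.18 and 1.02, and that of CRYBB2 and CRYBB3 (chr22:25000001-25500000) 0.91, 1.83 and 1.57. Another, on chromosome 9, rested on 1 bait. At the low end stood a window near NR5A2 (chr1:199500001-200000000), which lies 27 kb away and encodes a nuclear receptor of pluripotent and liver cells, with 1.93 in DMSO, 0.86 with UNC6852 and 0.78 with UNC1999. Its mean centred difference was -1.09, and -0.41 over pairs within 2 Mb. It was followed by USP17L genes on chromosome 4, DEFB126 on chromosome 20, HTR1E on chromosome 6 at 2.09, 1.35 and 1.00, and the SMIM32 locus. The USP17L locus had 2 baits, and its sum of -22.4 was -2.63 without the bait of largest sum. Without that bait the DEFB126 sum of -18.5 was -0.91.

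Loci that held a transcription factor of the gene lists, 206 in number, were compared with the 1878 others. Of these 206, 16 were higher (7.77%) and 5 lower (2.43%), beside 12.1% and 6.23% of the others. They had more pairs, with a median of 93.5 against 43, and loci with more pairs passed 0.3 less often throughout. Above 0 lay 145 of the 206 (70.4%) and 60.1% of the others, and the median of their means was 0.072 against 0.051. Of all 295 loci with 100 pairs or more, with or without a listed factor, 199 lay above 0. The loci were not matched by number of pairs. Whether the larger share above 0 belongs to loci with a listed factor or to loci with many pairs was not tested. The higher loci included those of PAX7, NKX3-2, TFAP2E, LHX8, SIX2, SOX6 (2 windows), BARX1, NKX2-3, RUNX1, BHLHE23, IRX5, NKX2-5, RUNX2 and NKX6-2. Among them, RUNX1, a master regulator of blood formation, had 16 calls in DMSO, 26 with UNC6852 and 18 with UNC1999 over 55 pairs. BARX1, a homeodomain factor of teeth and stomach, had 16, 24 and 15 over 52 pairs with 11 of 12 baits above 0, and NKX2-5 of the heart had 10, 19 and 17 over 36 pairs. The 5 lower loci were those of EMX1, VSX1, LHX3, POU3F2 and NKX1-2. POU3F2, a neural POU factor, had 27 calls in DMSO, 13 with UNC6852 and 33 with UNC1999 over 67 pairs, so UNC1999 lay on the other side of DMSO.

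Genes were then taken one at a time. Pairs with either fragment no more than 1000 bp from the start or end of an annotated protein-coding gene were given to that gene, and 4978 genes had 3 pairs or more. A mean centred difference of 0.5 or more was found for 867 of them (17.4%) and of -0.5 or less for 699 (14%), with a median of 0.048. Of 123 listed homeobox regulators outside the HOX clusters 88 were measured, 17 were higher (19.3%) and 7 lower (7.95%), and their median was 0.16. POU3F3, a neural POU factor, had mean asinh scores of 0.71 in DMSO, 2.66 with UNC6852 and 0.81 with UNC1999, with 1, 6 and 0 of 6 pairs called. EN2, the midbrain partner of EN1, had 0.63, 2.00 and 1.15 with 0, 4 and 2 of 6 pairs called. In the other direction LHX5, a LIM-homeodomain factor of the forebrain, had 1.38, 0.36 and 1.70 with 4, 0 and 5 of 9 pairs called. HMX2, a factor of the inner ear, had 1.88, 1.23 and 1.23 over 14 pairs.

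Of the 40 measured HOX genes 2 were higher and none was lower, with a median of 0.027. HOXB8 had a mean asinh score of 1.65 in DMSO, 2.64 with UNC6852 and 2.00 with UNC1999 over 6 pairs, and HOXA13 had 1.33, 1.90 and 1.91 over 10. The 6 pairs of HOXB8 join 1 fragment to baits of the SKAP1 locus, so they repeat pairs of a locus chosen for its high sum. HOXD1 was the best covered of the low members, with 33 of 54 pairs called in DMSO, 19 with UNC6852 and 21 with UNC1999, and a mean centred difference of -0.37. Neural and neural crest regulators had 3 higher (9.38%) and 4 lower (12.5%) of 32, with a median of 0.023. GATA2, a zinc-finger factor of blood and of the placenta, had 4, 0 and 3 of 7 pairs called. NEUROD2, a helix-loop-helix factor of cortical neurons, had 6 of 14 pairs called in DMSO, 1 with UNC6852 and 7 with UNC1999. ZIC1, a zinc-finger factor of the dorsal neural tube, had 0.96, 2.01 and 1.66 over 5 pairs.

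Mesoderm and endoderm regulators had 3 higher and 3 lower of 40 (7.5% each way), beside 17.4% and 14% of all measured genes. Of the 40, 24 lay above 0 and 16 below, with a median of 0.084. FOXQ1, a forkhead factor, had mean asinh scores of 0.83 in DMSO, 2.14 with UNC6852 and 1.25 with UNC1999 over 7 pairs, and OSR2, a zinc-finger factor of limb and palate, had 3, 7 and 3 of 13 pairs called. TBX20, a T-box factor of the heart, had 2.12, 1.06 and 0.96 over 7 pairs. Developmental signalling genes had 8 higher (12.9%) and 6 lower (9.68%) of 62, with a median of 0.0087. A pair of related Wnt antagonists went apart, SFRP1 at 0.60 in DMSO, 1.58 with UNC6852 and 1.23 with UNC1999, and SFRP5 at 1.99, 0.93 and 1.58, over 5 pairs each. The Wnt receptor FZD2 had 0, 4 and 3 of 7 pairs called. Axon guidance and adhesion genes had 6 higher (20.7%) and 2 lower (6.90%) of 29, with a median of 0.18. The guidance ligand SLIT2 had 0.13, 1.31 and 1.30 over 6 pairs and its relative SLIT1 2.15, 1.78 and 1.55 over 9.

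The Polycomb genes themselves were thinly covered. Of 13 listed PRC2 genes 2 were measured, EPOP at a mean centred difference of -0.20 over 34 pairs and EZH1 at -0.037 over 6. EED itself had fewer than 3 pairs. Of 22 PRC1 genes 8 were measured, with 1 higher and 1 lower. PCGF2, a paralogue of BMI1, had mean asinh scores of 1.52 in DMSO, 2.13 with UNC6852 and 1.80 with UNC1999 over 11 pairs, and CBX6 had 2.22, 1.21 and 1.96 over 5. RING1, the catalytic partner of the PCGF subunits, had 8, 2 and 3 of 12 pairs called.

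Genes of the naive state had 0 higher and 0 lower of 6 measured. TFAP2C, a regulator of naive human cells, was the best covered, with 26 of 59 pairs called in DMSO, 45 with UNC6852 and 24 with UNC1999 and a mean centred difference of 0.30, which was -0.19 at gene ends within 0 bp. KLF4 had 7, 4 and 5 of 14 pairs called. General and primed pluripotency genes had 2 higher (25%) and 0 lower of 8. Trophoblast and amnion genes had 2 and 2 of 15 (13.3% each way), and imprinted genes 3 (33.3%) and 0 of 9. Of all measured genes 17.4% were higher and 14% lower, and lists this short were not tested against those shares. PLAGL1, an imprinted zinc-finger gene, had 4, 10 and 5 of 16 pairs called, and GRB10, an imprinted adaptor of growth factor receptors, had 2, 4 and 4 of 10. Housekeeping genes had 1 higher and 1 lower of 9 with a median of 0.30, above that of each list of developmental regulators, so a median of this size was also found in genes listed as controls. Most gene means rest on 5 to 16 pairs, and the sign of the mean turned for 23 of 48 named genes under at least 1 other choice of pairs, of merged other ends or of the distance to the gene end. LHX5, HMX2, HOXA13, FOXQ1, SFRP1, ZIC1, PLAGL1, TFAP2C, KLF4, EPOP and EZH1 were among them.

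**Figure D5:**
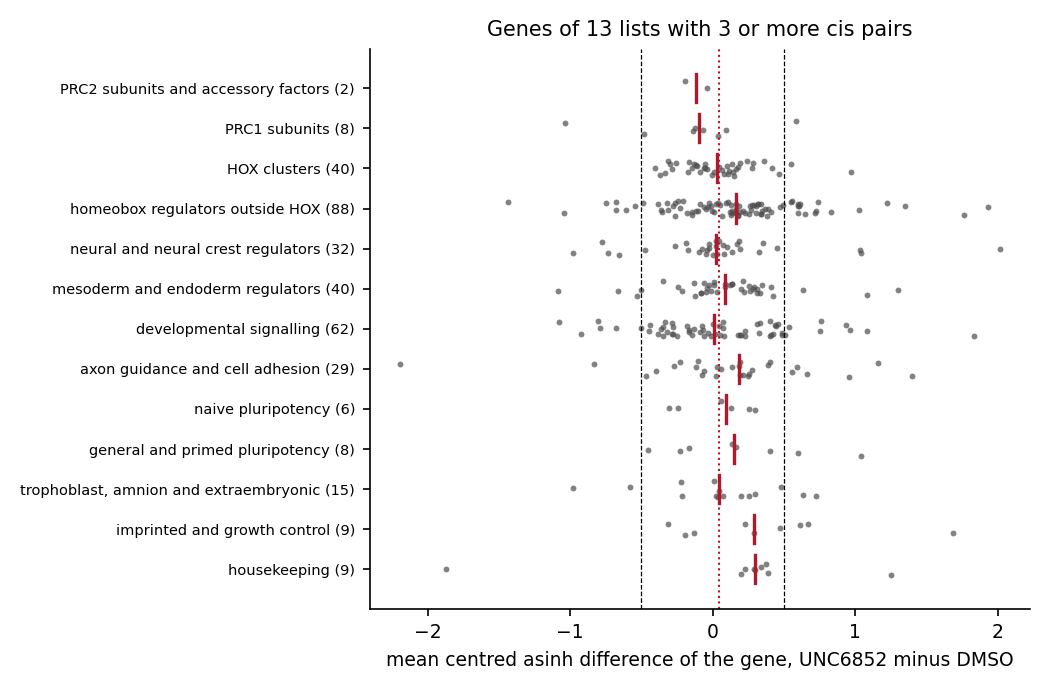
Mean centred asinh difference (UNC6852 minus DMSO) of each gene with 3 or more pairs, 1 point per gene, in 13 lists, with the list median as a red bar, the median of all 4978 genes (0.048) as a dotted line and dashed lines at 0.5 and -0.5. HOX genes gather around their median of 0.027, and homeobox regulators outside HOX spread further, with 17 of 88 above 0.5 and 7 below -0.5.

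Among the chromosomes that hold loci, the mean centred difference ran from 0.0017 on chromosome 22 to 0.13 on chromosome 16, the latter including the locus beside the centromere. Chromosome 10, which holds the VAX1, NKX6-2 and NKX2-3 loci and the low BMI1 locus, had 17 higher and 4 lower loci of 105. Over all loci 11.7% were higher and 5.85% lower. Chromosome 9 had 18 higher and 8 lower of 89, and chromosome 2 had 26 and 11 of 160. Chromosome 14 had 6 higher and 7 lower of 61, and its call ratio of UNC6852 to DMSO was 1.02.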

How the data were processed

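The deposited values are CHiCAGO scores, 1 column per condition, made by the authors from all libraries of that condition pooled, per the labels and the file header. The build, GRCh38, is taken from the submitters' processing notes, and versions of the aligner and the caller are not given in the sources used here. Every listed pair has a score of 5 or more in some column. No scaling between columns was applied in the main calculation. The number of reads behind a score is unknown, so no interval or floor is given.

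Pairs with bait and other end on the same chromosome were kept, scores were transformed to asinh, the DMSO value was subtracted from the UNC6852 value, and the median over all such pairs was subtracted. Differences were summed and averaged over fixed 500 kb windows of the bait's midpoint with at least 20 pairs. With 1 pooled profile per group no test was possible, and loci, pairs and genes are described by size alone, with thresholds of 0.3 for loci, 1 for pairs and 0.5 for genes. Loci named are the 10 highest and 10 lowest by sum, the 5 highest and 5 lowest by mean and the HOX windows. From each gene list the 2 highest and 2 lowest genes with at least 5 pairs were eligible, and single contacts and shared fragments were picked for the size of their difference. Genes and promoter sequences are those of RefSeq for GRCh38.p14, of which 20033 protein-coding genes were placed. Of 590 genes in 13 lists 589 matched, 2 of them by an older symbol. The members, lists and rules were chosen with earlier results of these data known, and no list is independent evidence of its direction. The calculation was tested on simulated data. Python 3.11.15, numpy 2.4.6, pandas 2.3.3, scipy 1.17.1 and matplotlib 3.10.9 were used. Alternatives covered the scale, normalization between profiles, centring, distance, the choice of pairs, the grid and size of windows and the distance to gene ends. Subtracting the mean and leaving out the bait of largest sum were added after the data had been seen. Pairs between chromosomes were not analysed here beyond their number, and a few loci that met the naming rule are not reported here.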

Additional observations from a re-analysis of the deposited data

Results flagged for a closer look

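Pairs between chromosomes lie outside the comparison within chromosomes and stood above the DMSO level. Among 281836 such pairs, 84499 had a score of 5 or more in the DMSO profile, 96770 in the UNC6852 profile and 101879 in the UNC1999 profile. The ratio of UNC6852 to DMSO calls was 1.15 between chromosomes, beside 1.09 within them. UNC1999 had 1.21 times the DMSO calls between chromosomes, and within them the ratio of 0.997 lay near 1. Of the calls between chromosomes, 593 were shared by DMSO and UNC6852. The difference has no replicate and was not tested.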

How the results depend on the processing

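No paired analysis was possible because each condition is 1 pooled profile that carries no replicate number, and for the same reason no replicate could be left out. The median difference of 0.021 over all pairs was -0.0089 after quantile normalization, 0.044 with pairs at 2 Mb or less, 0.10 with pairs of score 5 or more in UNC6852 or DMSO, 0.044 with pairs of mean score 5 or more, and 0 with neighbouring other ends merged, so its sign is not settled. The number of pairs past 1 and -1 left 1.5 times its value only with pairs of mean score 5 or more, at 2673 and 2021.

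The count of higher loci (243) was 135 with log2(score + 1), 161 with pairs at 2 Mb or less, 13 with pairs of mean score 5 or more, 460 with windows of 10 pairs or more and 94 with 40 or more. The count of lower loci (122) was 59 with log2(score + 1), 215 with pairs of score 5 or more in either profile, 3 with pairs of mean score 5 or more, 81 in 1 Mb windows, 280 with 10 pairs or more and 33 with 40 or more. Filters that keep fewer pairs also test fewer loci: 573 at a mean score of 5 or more and 1194 at 40 pairs or more, against 2084. The share of higher among the called loci was 66.6%, and 49.3% with the mean subtracted, 51.4% after quantile normalization, 43.9% with pairs of score 5 or more in either profile and 81.2% with pairs of mean score 5 or more. Counts of higher and lower genes (867 and 699) were 72 and 74 with pairs of mean score 5 or more, 476 and 421 at gene ends within 0 bp, 419 and 318 with 5 pairs or more, and 1293 and 1112 within 5000 bp, with 8058 genes tested against 4978.

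Of 33 named loci, 25 kept the sign of their sum in every alternative run, though not always its size. Of 427 sums, 318 stayed within a factor of 1.5 of the main value. With pairs of mean score 5 or more, a filter that keeps fewer pairs, EMX1 went from -30.9 to -0.72 and BMI1 from -29.1 to -0.74. The chrX locus went from -27.1 to -0.23 and that of NKX6-2 from 18.5 to 0.51, while the chromosome 16 sum of 336.7 was 176.6. The sign turned at the chromosome 9 locus of 1 bait with pairs at 2 Mb or less (-0.044) and with pairs of mean score 5 or more (-0.43), and with the latter also at the SMIM32 locus (0.0070) and at another locus of high mean (-1.48). Loci below 0.3 whose sign turned were NR2F2, HOXC4 to HOXC9, HOXA, HOXB and HOXD. The sign turned for 23 of 48 named genes (33 of 548 values), TFAP2C among them (-0.19 within 0 bp), and for 10 of the 27 past 0.5 or -0.5. Of those 10 it turned with pairs of mean score 5 or more for HOXA13 (-0.076), EPHA10 (-0.51), ETV5 (-0.42) and FOXQ1 (-0.37). With gene ends within 5000 bp it turned for CYP26C1 (0.41), SFRP1 (-0.053), LHX5 (0.15), HMX2 (0.017), PLAGL1 (-0.0013) and ZIC1 (-0.0044), within 0 bp for HOXA13 (-0.19), and with pairs at 2 Mb or less for HMX2 (0.13). The cause was not tested.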
